A study of Homo sapiens with 12 samples.

Results

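Fatty acid oxidation and ketone synthesis are described here through 34 genes, taken by their symbols from the 27249 genes that carry an Ensembl identifier in the expression tables. The 34 were chosen by name, as enzymes, carriers and binding proteins of the pathway, and not by their values, although earlier results of these data were known when the list was made. RNA was sequenced from Huh7 and HepG2 cells, which are human liver cancer cell lines, both labelled as wild type. Parental (sorafenib-sensitive) cells had received no drug. Resistant cells were selected with sorafenib, a multikinase inhibitor given for liver cancer, from a first dose of 10 μmol that was raised step by step over 8 months. The 4 groups (parental Huh7, resistant Huh7, parental HepG2 and resistant HepG2) hold 3 samples each. The labels give neither the number of clones behind a resistant line, nor whether the drug was present at harvest, nor whether the 3 samples came from separate cultures, so p-values measure the spread between these samples, which may be technical.

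Fatty acids are bound in the cytosol, joined to coenzyme A by acyl-CoA synthetases and carried into mitochondria by the carnitine shuttle. There they are shortened in a cycle of dehydrogenation, hydration, a second oxidation and thiolysis, and the electrons pass through the electron transfer flavoprotein to the respiratory chain. Very long and branched acids are first shortened in peroxisomes. In the liver, much of the acetyl-CoA that results can be turned into ketone bodies, which the liver releases for other tissues and hardly uses itself, since hepatocytes have little of the enzyme that reclaims them. Many genes of this pathway are known targets of the nuclear receptor PPAR-alpha, which binds, with RXR, a direct repeat of the half-site AGGTCA.

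The tables give values that behave as FPKM (fragments scaled by exon length and by sequencing depth), and the reads behind a sample numbered 12290156 to 19285948. Samples of one group resembled each other closely (correlation of log2 values across genes 0.9643 to 0.9856), and none of the libraries stood apart. Hepatocyte lineage genes were abundant in all 12 libraries, the lowest of the 8 being FGB at 9.51 to 13.6 FPKM in resistant HepG2 (35.7 to 54.5 FPKM in parental HepG2). Several moved with resistance (parental values are given first). AFP was lower in both resistant lines (4623.1 to 6306.2 against 2115.3 to 2415.3 FPKM in Huh7, 1080.6 to 1687.9 against 329.4 to 423.0 FPKM in HepG2), as was ALB (867.1 to 1113.6 against 571.0 to 794.0 FPKM, and 1132.3 to 2136.7 against 743.7 to 951.3 FPKM). APOA2 was higher in both (474.1 to 514.1 against 1301.7 to 1639.2 FPKM, and 522.4 to 622.0 against 1200.7 to 1636.2 FPKM). Of 7 markers of other cell types, CD68, KRT7, COL1A1 and COL3A1 stayed below 1 FPKM in every library and PTPRC reached 1.51 FPKM. PECAM1 was lower in resistant HepG2 (2.48 to 3.61 against 1.12 to 1.54 FPKM) and higher in resistant Huh7 cells (1.29 to 1.43 against 1.87 to 1.97 FPKM), and ACTA2 lay at 13.4 to 21.6 FPKM in HepG2 but at 0.0871 to 0.637 FPKM in Huh7. The part of these markers in the results was not tested. Since RNA was taken from whole cultures, fewer cells that express a gene and less RNA per cell cannot be told apart.

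Each comparison was made with limma on log2(FPKM + 1) over the genes that reached 1 FPKM in 3 or more of the samples compared. An adjusted p (Benjamini-Hochberg, over all genes tested) under 0.05 is named a change, and a log2 fold change beyond 1 is stated separately. Fold changes on this scale understate the change of genes of low level. In Huh7, 30 of the 34 members could be tested. Resistant cells had more of 12 members (40%) and less of 9 (30%) than parental cells. These shares lie near those of all 12554 genes tested, where 32.7% were called higher and 37.4% lower. BDH1, among the 12 higher, passed the filter only through the resistant samples. In HepG2, 29 members were tested, 1 (3.45%) was higher and 3 (10.3%) were lower, against 11.6% and 8.43% of 11762 genes. Under either other scaling of the libraries 0 members were higher and 4 lower, and the shares of all genes under that scaling are not given here. With a change beyond 1, Huh7 had 1 member higher and 1 lower (3.33% each, against 8.59% and 14% of all genes). In HepG2 all 3 lower members passed that size (10.3%, against 2.98% of all genes), while no member was higher beyond 1 (0 of 29 by limma and by limma-voom, with 0 also at an unadjusted p under 0.05), against 3.29% of all genes. The median log2 fold change over the tested members was 0.14 in Huh7 and 0.0 in HepG2, beside −0.04 and 0.12 over all genes tested.

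**Figure D1:**
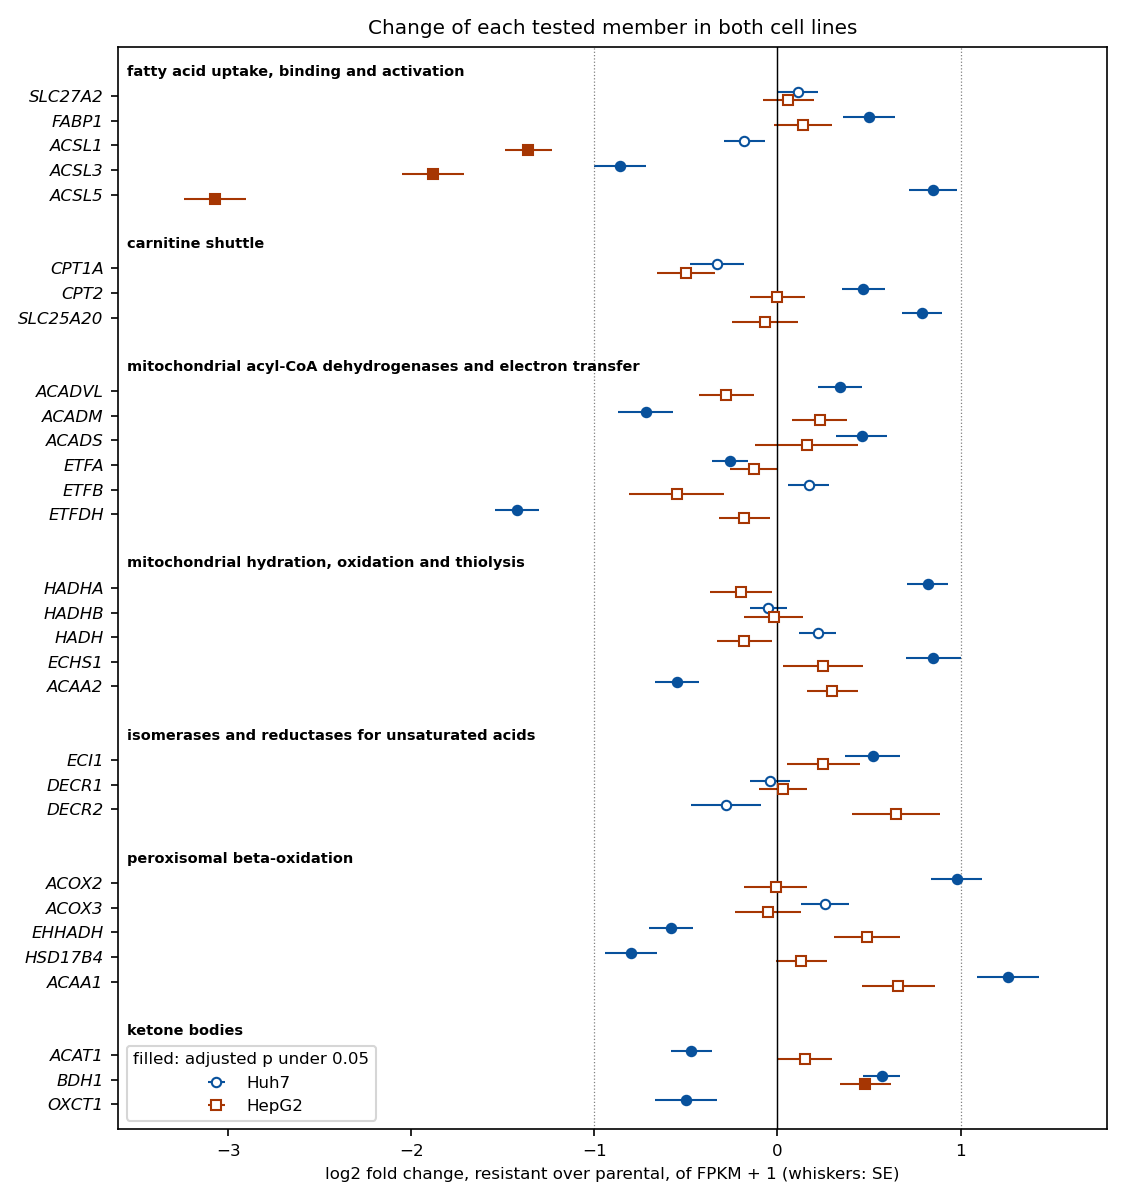
Log2 fold change of FPKM + 1, resistant over parental, for each tested member by role, with Huh7 as blue circles and HepG2 as brown squares. Whiskers are standard errors, filled marks have an adjusted p under 0.05 and dotted lines mark a change of 1. In HepG2 the 3 acyl-CoA synthetases lie far to the left (−1.36 to −3.07), and in Huh7 the members spread from −1.42 (ETFDH) to 1.26 (ACAA1).

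The largest changes in HepG2 were those of the long-chain acyl-CoA synthetases, which activate fatty acids for oxidation or for storage in lipids. ACSL5, an isoform of mitochondria and endoplasmic reticulum (chromosome 10, 112374018 to 112428380, plus strand, GRCh38), is shown by a stretch of its promoter, because it was called in both lines in opposite directions. FABP1, the fatty acid binding protein of liver cytosol (chromosome 2, 88122982 to 88128116, minus strand), is shown beside it, because these were the only 2 of the 46 RefSeq promoters of the members that hold the half-site. Each line is 30 bases from the GRCh38.p14 RefSeq promoter, 5′ to 3′ on the strand of the gene, with the half-site in capitals (TGACCT is AGGTCA read on the opposite strand).
ACSL5, chr10:112375033-112375062, plus strand: ttttactggaggAGGTCAataaaaaaaaaa
FABP1, chr2:88128113-88128142, minus strand: atcaacagctgcTGACCTctggccgctatt
The half-site ends 218 bases before the start site of that ACSL5 promoter and 63 bases before that of FABP1. A promoter here is a window of 300 bases around the start site, 28 of the 34 members had at least 1, and both strands were searched. The share with the half-site was 4.35% among the members' promoters and 13.8% among all 35116 promoters in the table. The median GC content of the windows was 64.5% among the members' and 58.7% among all, and its part in these shares was not tested. The full direct repeat with 1 base between the half-sites was found in 0 of 46 members' promoters and in 8 of all promoters (0.0228%). These matches describe the letters of the windows and no binding was measured.

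In HepG2, ACSL5 stood at 107.0, 103.4 and 75.0 FPKM in the 3 parental samples and at 9.87, 11.3 and 9.92 FPKM in the 3 resistant ones. In Huh7 it stood at 1.18, 1.58 and 1.02 FPKM in parental and at 3.32, 3.17 and 2.69 FPKM in resistant cells. Resistant and parental samples were apart in both lines, and resistant HepG2 cells, the lower group of their line, were still above both Huh7 groups. ACSL5 fell by 3.07 on the log2 scale in HepG2 (SE 0.17, adjusted p = 6.3e-05), where the mean was 9.19-fold lower, and rose by 0.85 in Huh7 (SE 0.13, adjusted p = 0.000536). The difference between the 2 changes was 3.92 (SE 0.21, adjusted p = 1.65e-07). In this fit no other member was called in both lines with opposite signs, although limma-voom also called DECR2 (−0.36 in Huh7, 0.71 in HepG2) and the fit of all 12 samples EHHADH (−0.58 and 0.49) in this way. Of the exon bases of ACSL5, 8.64% also lie in exons of other genes, mainly ZDHHC6, which ran at 9.9 to 15.2 FPKM in HepG2. In Huh7, ZDHHC6 was above ACSL5, at 12.7 to 14.3 FPKM in parental and 6.68 to 9.93 FPKM in resistant cells. How far the low Huh7 values of ACSL5 hold reads of ZDHHC6 was not tested.

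ACSL3, the isoform of lipid droplets and endoplasmic reticulum, had 108.6, 84.0 and 107.4 FPKM in parental HepG2 and 31.0, 22.5 and 25.6 FPKM in resistant HepG2 cells. Huh7 had 41.7, 51.5 and 54.6 FPKM in parental and 26.2, 29.9 and 23.6 FPKM in resistant cells. All resistant samples of both lines lay below all parental ones. It fell by 1.88 in HepG2 (SE 0.17, adjusted p = 0.000492) and by 0.86 in Huh7 (SE 0.14, adjusted p = 0.000649), and the fall was larger in HepG2 (difference of the changes 1.02, SE 0.22, adjusted p = 0.0021). In Huh7, though not in HepG2, this call was lost once the trend with GC content described below had been taken off (−0.07, adjusted p = 0.36).

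ACSL1, the main synthetase of liver and fat, was at 9.56, 11.3 and 10.0 FPKM in parental HepG2 and at 3.6, 3.39 and 3.17 FPKM in resistant HepG2 cells. In Huh7 it was at 7.34, 6.43 and 6.42 FPKM in parental and at 5.21, 6.4 and 5.86 FPKM in resistant cells. The groups were far apart in HepG2 and nearly touched in Huh7. ACSL1 fell by 1.36 in HepG2 (SE 0.13, adjusted p = 0.000735). The Huh7 value was −0.18 (SE 0.11, adjusted p = 0.18), and the 2 changes differed by 1.18 (SE 0.16, adjusted p = 9.2e-05). The calls of ACSL1, ACSL3 and ACSL5 in HepG2 held in every alternative fit tried, including all fits that left out 1 sample.

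The 5 genes of the family (these 3 with ACSL4 and ACSL6) summed to 328.4 to 413.9 FPKM in parental and 96.6 to 145.3 FPKM in resistant HepG2 cells. In Huh7 the sum was 139.4 to 179.2 FPKM in parental and 81.5 to 103.0 FPKM in resistant cells. Within the sum, ACSL5 made up 21.2% to 31.5% in parental and 6.79% to 11.7% in resistant HepG2 cells, but 0.571% to 0.916% and 3.08% to 3.66% in parental and resistant Huh7 cells. ACSL4, which is not among the 34 genes and prefers polyunsaturated acids such as arachidonic acid, held the largest share in every library (39.5% to 69.2%). In HepG2 its own level went from 129.6 to 188.7 FPKM in parental to 59.2 to 100.6 FPKM in resistant cells (log2 fold change −1.05, SE 0.22, adjusted p = 0.0148), and in Huh7 it fell by 0.90 (SE 0.15, adjusted p = 0.000682). With the GC trend removed, the HepG2 fall of ACSL4 remained (−1.15, adjusted p = 0.00118) and the Huh7 one did not (−0.07, adjusted p = 0.402). ACSL3 and ACSL4 make up most of the Huh7 sum, which carries the same limit.

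**Figure D2:**
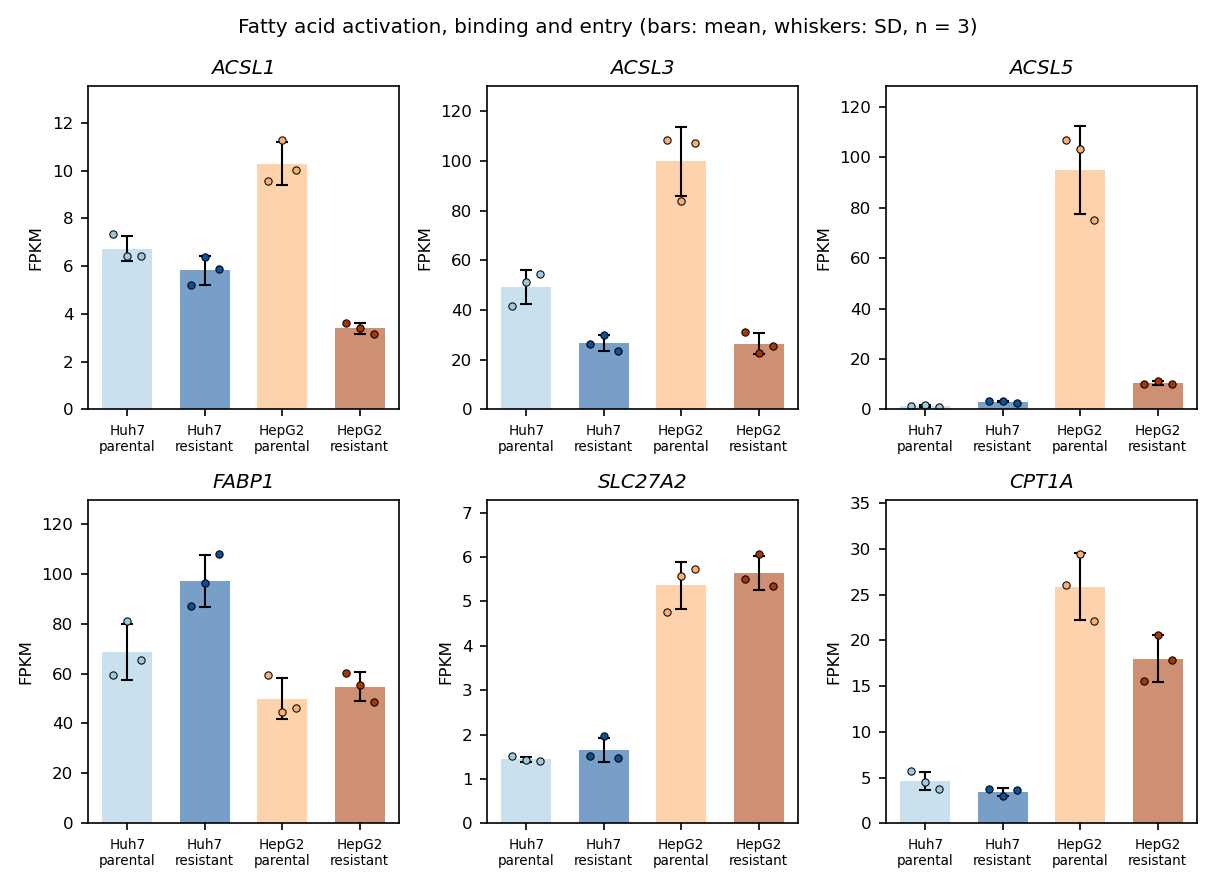
FPKM of 6 members that bind, activate or admit fatty acids, in the 4 groups, with bars for means, whiskers for SDs and points for the 3 samples of a group. Every axis starts at 0 and has its own range. ACSL5 stands at 75.0 to 107.0 FPKM in parental HepG2 and below 12 FPKM in the 9 other samples.

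Among the binding and uptake proteins, FABP1 was one of the most abundant members. It was higher in resistant (97.1 ± 10.4, SD, n = 3) than in parental Huh7 cells (68.6 ± 11.1 FPKM), with no overlap (log2 fold change 0.50, SE 0.14, adjusted p = 0.013), although without resistant replicate 3 the adjusted p was 0.0566. In HepG2, 54.8 ± 5.8 and 50.0 ± 8.08 FPKM overlapped (0.14, SE 0.16, adjusted p = 0.573). SLC27A2, an acyl-CoA synthetase and transporter for very long acids, gave 0.11 and 0.06 in Huh7 and HepG2 (SE 0.11 and 0.14) and no call. Its parental level was 3.7-fold higher in HepG2 (5.36 ± 0.527 FPKM) than in Huh7 (1.45 ± 0.0549 FPKM), with an adjusted p of 3.4e-05. Exons of ATP8B4 hold 19.9% of the exon bases of SLC27A2, and how far reads are shared was not tested.

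Both other uptake genes stayed under 1 FPKM in every sample and were therefore outside the main test. CD36, a surface scavenger receptor that takes up fatty acids, had 0.0661, 0.0763 and 0.049 FPKM in parental and 0.0521, 0.0154 and 0.0052 FPKM in resistant Huh7 cells, and 0.113, 0.0161 and 0.138 FPKM in parental and 0.0467, 0.0108 and 0.0115 FPKM in resistant HepG2 cells. SLC27A5, the bile acid and very long acid synthetase of hepatocytes, had 0.0486, 0.0444 and 0.0231 FPKM in parental and 0.0591, 0.0388 and 0.0393 FPKM in resistant Huh7 cells. HepG2 cells had 0.75, 0.588 and 0.531 FPKM in parental and 0.434, 0.675 and 0.688 FPKM in resistant cells. Both genes overlapped between resistant and parental samples in each line. SLC27A5 differed between the lines, with 204 reads in parental HepG2 and 16 in parental Huh7, a ratio at equal depth of 15.8 (95% exact interval 9.49 to 28.1, for counting error only), and in the fit without a filter this difference was called (−0.64, SE 0.07, adjusted p = 0.000579). Exons of ZNF446 and AC012313.9 hold 16.5% of the exon bases of SLC27A5, and how far reads are shared was not tested.

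Of the 3 genes of the carnitine shuttle, 2 rose in Huh7 and CPT1A did not pass the test. CPT2, the inner membrane transferase that returns the acyl group to coenzyme A, was higher in resistant (6.46 ± 0.166 FPKM) than in parental Huh7 cells (4.42 ± 0.678 FPKM, log2 fold change 0.47, SE 0.12, adjusted p = 0.00798). The carrier between them, SLC25A20, rose from 9.13 ± 1.22 to 16.4 ± 0.335 FPKM (0.79, SE 0.11, adjusted p = 0.000396). CPT1A, the outer membrane transferase that is regarded as the controlled step of entry, was 4.64 ± 0.982 FPKM in parental and 3.45 ± 0.439 FPKM in resistant Huh7 cells (−0.33, SE 0.15, adjusted p = 0.0762), with overlapping samples. In HepG2, CPT1A gave 25.9 ± 3.69 and 18.0 ± 2.56 FPKM with no overlap, but did not pass the test (−0.50, SE 0.16, adjusted p = 0.0646). It passed in HepG2 in 5 of the alternative fits, among them both other scalings (−0.61 and −0.58, adjusted p 0.0388 and 0.044), and in Huh7 with the GC trend removed (−0.62, adjusted p = 0.00234), with limma-voom (−0.48, adjusted p = 0.00819) and without parental replicate 3 (−0.46, adjusted p = 0.023). CPT2 and SLC25A20 gave 0.00 and −0.07 in HepG2, and their changes differed between the lines (0.47, adjusted p = 0.0432, and 0.86, adjusted p = 0.00345). The CPT2 difference passed narrowly, and leaving out a single sample took it above 0.05 for 9 of the 12 samples (adjusted p up to 0.11). Exons of C1orf123 and AL606760.2 hold 12% of the exon bases of CPT2. C1orf123 went from 5.09 to 6.88 FPKM in parental to 7.12 to 8.39 FPKM in resistant Huh7 cells. In HepG2 it went from 5.21 to 7.14 FPKM to 7.49 to 7.86 FPKM. How far CPT2 shares reads with it was not tested.

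Within each library, the ratio of CPT1A to CPT2, both per length, was 0.959 to 1.16 in parental and 0.456 to 0.574 in resistant Huh7 cells. In HepG2 the ratio was 6.63 to 9.03 in parental and 4.84 to 5.74 in resistant cells. Parental and resistant samples did not overlap in either line, with a log2 difference of −0.98 in Huh7 and −0.52 in HepG2. The exact permutation test (2-sided) gave p = 0.1 in both, the smallest value that 3 samples against 3 allow. These ratios, and those of other member pairs below, were chosen after the values had been seen.

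Of the acyl-CoA dehydrogenases, which open each round by chain length, ACADVL (very long chains) and ACADS (short chains) were higher in resistant Huh7 cells and ACADM (medium chains) was lower. ACADM had 2.61 ± 0.677 FPKM in parental and 1.17 ± 0.117 FPKM in resistant Huh7 cells (−0.72, SE 0.15, adjusted p = 0.00226). ACADS had 2.06 ± 0.316 and 3.22 ± 0.553 FPKM (0.46, SE 0.14, adjusted p = 0.0152). ACADVL had 29.8 ± 3.25 and 37.9 ± 3.55 FPKM (0.34, SE 0.12, adjusted p = 0.0317), a call that the fit without a filter and 4 of the 6 fits without 1 sample did not give (adjusted p up to 0.115). The call of ACADS was lost without resistant replicate 1 or 3 and with all 12 samples in 1 fit (adjusted p = 0.111). With the trend of GC content removed, which is described further on, ACADM was at −0.17 and ACADS at −0.01 without a call, and ACADVL was called lower (−0.20, adjusted p = 0.017). In HepG2 the values were −0.28 for ACADVL, 0.23 for ACADM and 0.16 for ACADS, with adjusted p from 0.218 to 0.719. The change of ACADM and that of ACADVL differed between the lines (−0.95, adjusted p = 0.00207, and 0.62, adjusted p = 0.0126), whereas that of ACADS did not pass (0.31, SE 0.34, adjusted p = 0.458).

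ACADL, the long-chain dehydrogenase, stayed below 1 FPKM everywhere and was therefore not in the main test. It had 0.674, 0.962 and 0.692 FPKM in parental Huh7 and 0.012, 0.0355 and 0.06 FPKM in resistant Huh7 cells. In reads these were 173 in the 3 parental and 9 in the 3 resistant samples, a ratio at equal depth of 21.6 (95% exact interval 11.1 to 48.1, counting error only). All resistant samples lay far below all parental ones, and in the fit without a filter on low values the gene was called (log2 fold change −0.77, SE 0.08, adjusted p = 0.000966). HepG2 samples had 0.0348, 0.0371 and 0 FPKM in parental and 0, 0.025 and 0 FPKM in resistant cells, at most 2 reads in a sample.

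Electrons from these dehydrogenases reach ubiquinone through the electron transfer flavoprotein, whose subunits are ETFA and ETFB, and through its oxidoreductase ETFDH. ETFDH (chromosome 4, 158672125 to 158709623, plus strand) had 4.69, 5.21 and 5.54 FPKM in parental and 1.13, 1.53 and 1.23 FPKM in resistant Huh7 cells. The HepG2 values were 3.97, 3.21 and 3.51 FPKM in parental and 3.43, 2.86 and 2.75 FPKM in resistant cells. The Huh7 groups were widely separated and the HepG2 groups overlapped. It fell by 1.42 in Huh7 (SE 0.12, adjusted p = 3.7e-05), where the mean was 3.97-fold lower, and gave −0.18 in HepG2 (SE 0.14, adjusted p = 0.39). The 2 changes differed by −1.24 (SE 0.17, adjusted p = 0.000116), and the Huh7 call held in every alternative fit, GC trend removed included (−1.16, adjusted p = 4.6e-05).

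Of the exon bases of ETFDH, 13.8% also belong to exons of PPID and C4orf46. PPID went from 10.2 to 10.9 FPKM in parental to 3.45 to 4.34 FPKM in resistant Huh7 cells, and from 6.62 to 8.59 FPKM to 5.67 to 7.32 FPKM in HepG2. The setting for strand in the counting is not given in the sources used here, so how far the 2 genes share reads was not tested. ETFA gave 37.9 ± 2.35 and 31.5 ± 0.705 FPKM in parental and resistant Huh7 cells (−0.26, SE 0.10, adjusted p = 0.0407), a call that was lost without any 1 of the 6 samples, under median-ratio scaling and with the GC trend removed (0.03). ETFB did not pass in either line (0.17, adjusted p = 0.203, in Huh7 and −0.55, SE 0.26, adjusted p = 0.163, in HepG2), and its parental HepG2 samples spread from 6.18 to 14.2 FPKM. The ratio of ETFDH to ETFA within a library was 0.116 to 0.147 in parental and 0.0359 to 0.0498 in resistant Huh7 cells (log2 difference −1.73, exact permutation p = 0.1). In HepG2 the ratios overlapped (log2 difference −0.11, exact permutation p = 0.7).

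The next steps of the mitochondrial cycle are catalysed by the trifunctional protein of HADHA and HADHB for long chains, and by ECHS1, HADH and ACAA2 for shorter ones. HADHA, the subunit that hydrates and oxidises, was at 25.7 ± 2.41 FPKM in parental and 46.1 ± 2.65 FPKM in resistant Huh7 cells (log2 fold change 0.82, SE 0.11, adjusted p = 0.000262). HADHB, the thiolase subunit, was at 58.0 ± 3.83 and 56.1 ± 2.66 FPKM (−0.05, SE 0.10, adjusted p = 0.697). The 2 genes lie head to head on chromosome 2, HADHA on the minus strand (26190635 to 26244726) and HADHB on the plus strand (26243170 to 26290468), with no exon bases shared. In HepG2, HADHA gave −0.20 (SE 0.17) and HADHB −0.02 (SE 0.16). The change of HADHA differed between the lines by 1.02 (SE 0.20, adjusted p = 0.00121) and that of HADHB gave −0.03 (SE 0.18, adjusted p = 0.909).

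The ratio of HADHA to HADHB within a library was 0.395 to 0.468 in parental and 0.733 to 0.877 in resistant Huh7 cells, with a log2 difference of 0.89. In HepG2 it was 0.579 to 0.639 in parental and 0.487 to 0.576 in resistant cells, a log2 difference of −0.18. Neither line had overlapping ratios (exact permutation p = 0.1 in both), and the direction was opposite in the 2 lines. With the GC trend removed, HADHA remained higher in Huh7 (0.62), and HADHB, whose GC content is lower (43.5% against 49.4%), became higher as well (0.27, adjusted p = 0.0143).

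ECHS1, the short-chain hydratase, had 35.3, 27.0 and 25.7 FPKM in parental and 60.0, 48.1 and 52.0 FPKM in resistant Huh7 cells. For HepG2 the values were 42.6, 66.1 and 40.7 FPKM in parental and 47.6, 71.2 and 57.6 FPKM in resistant cells. Huh7 groups were separate and HepG2 groups mixed. ECHS1 rose in Huh7 (0.85, SE 0.15, adjusted p = 0.000963) and gave 0.25 in HepG2 (SE 0.22, adjusted p = 0.452), and the difference between the lines did not pass (0.60, SE 0.28, adjusted p = 0.0902). ACAA2, the thiolase that ends the cycle, fell in Huh7 from 24.8 ± 2.72 to 16.6 ± 1.42 FPKM (−0.55, SE 0.12, adjusted p = 0.00321) and gave 0.30 (SE 0.14, adjusted p = 0.168) in HepG2, where its samples did not overlap. The 2 changes differed by −0.85 (SE 0.17, adjusted p = 0.00148). HADH, the dehydrogenase of medium and short chains, gave 0.22 (SE 0.10, adjusted p = 0.0778) in Huh7 and −0.18 in HepG2.

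**Figure D3:**
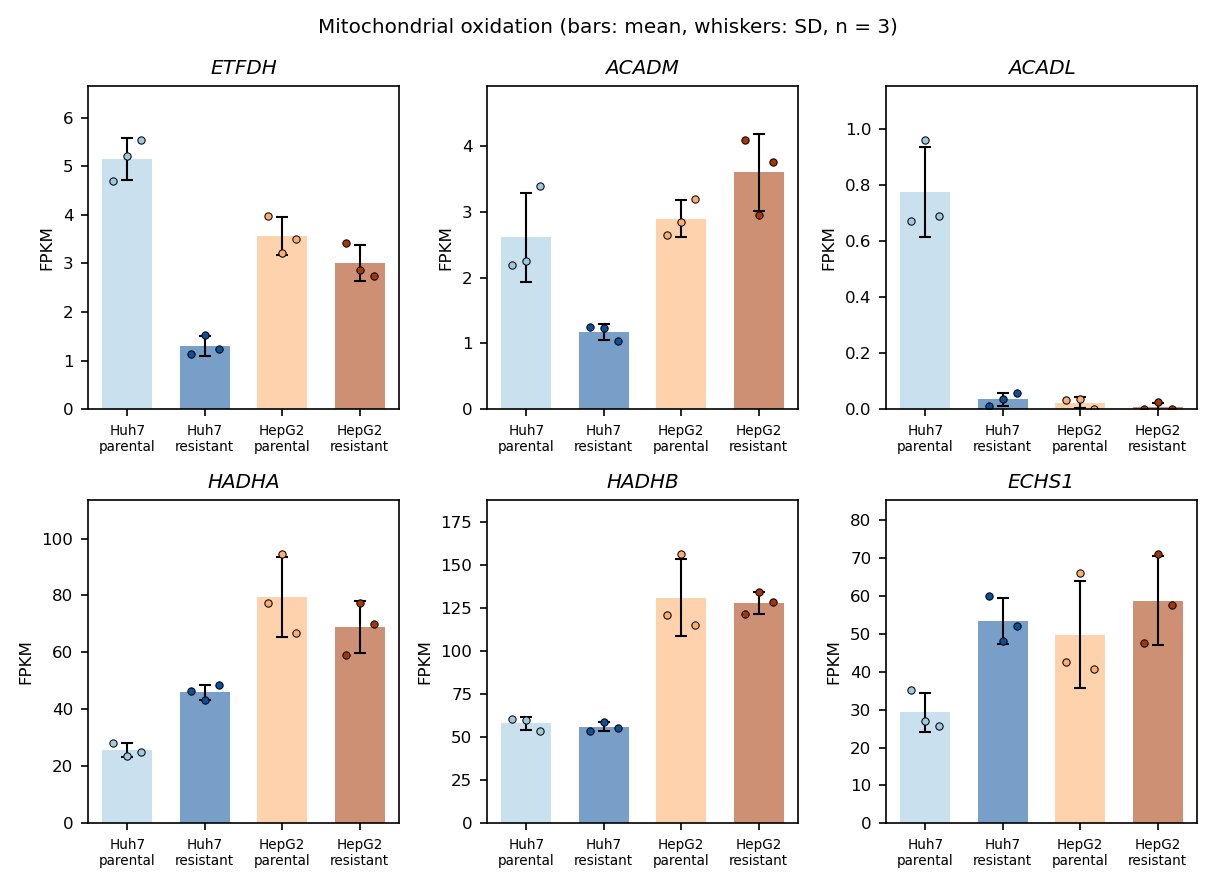
FPKM of 6 members of mitochondrial oxidation in the 4 groups, with bars for means, whiskers for SDs and points for the 3 samples of a group. Every axis starts at 0 and has its own range. In Huh7, ETFDH and ACADL stand lower in all resistant samples and HADHA and ECHS1 higher, while HADHB overlaps.

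Unsaturated acids need the isomerases ECI1 and ECI2 and the reductases DECR1 (mitochondria) and DECR2 (peroxisomes). ECI1 rose in Huh7 from 13.3 ± 1.6 to 19.6 ± 3.51 FPKM (0.52, SE 0.15, adjusted p = 0.0139), although without resistant replicate 3 the adjusted p was 0.0551 and with the GC trend removed the value was −0.01. DECR1 stayed at 8.04 to 9.72 FPKM in all 6 Huh7 samples and at 9.53 to 11.2 FPKM in all 6 HepG2 samples. DECR2 had 16.7, 16.3 and 13.3 FPKM in parental and 11.8, 9.7 and 17.0 FPKM in resistant Huh7 cells, and 11.0, 10.0 and 14.3 FPKM in parental and 12.9, 23.0 and 22.6 FPKM in resistant HepG2 cells. The groups overlapped in both lines, and neither change passed (−0.28, adjusted p = 0.221, and 0.65, adjusted p = 0.0848). Limma-voom called both (adjusted p 0.0456 in Huh7 and 0.036 in HepG2). DECR2 was also called in Huh7 with the GC trend removed (−0.82, adjusted p = 0.00274) and without resistant replicate 3 (−0.48, adjusted p = 0.0251), and in HepG2 with the replicate block (adjusted p = 0.045), with all 12 samples in 1 fit and without resistant replicate 1 (0.91, adjusted p = 0.0125). The difference between the 2 changes passed (−0.93, SE 0.33, adjusted p = 0.0296), but leaving out a single sample took it above 0.05 for 8 of the 12 samples (adjusted p up to 0.0724). Exons of NME4 hold 14.1% of the exon bases of DECR2. NME4 went from 9.85 to 13.8 FPKM in parental to 20.0 to 26.9 FPKM in resistant Huh7 cells. In HepG2 it went from 10.0 to 12.9 FPKM to 13.5 to 19.7 FPKM. How far DECR2 shares reads with it was not tested.

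ECI2 stayed under 1 FPKM, with 0.207, 0.194 and 0.135 FPKM in parental and 0.161, 0.113 and 0.253 FPKM in resistant Huh7 cells. Levels in HepG2 were 0.931, 0.675 and 0.583 FPKM in parental and 0.503, 0.645 and 0.685 FPKM in resistant cells. Resistant and parental samples overlapped in both lines, and the parental lines differed by a ratio at equal depth of 4.01 (136 against 42 reads, 95% exact interval 2.82 to 5.81, counting error only). Other genes share 29.8% of its exon bases, the highest share of the list.

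In peroxisomes, the thiolase ACAA1 had the largest rise of the list in Huh7 (with the GC trend removed, CPT2 rose more, by 1.23 against 1.07). It had 5.32, 3.22 and 4.15 FPKM in parental and 13.3, 9.86 and 11.2 FPKM in resistant Huh7 cells. In HepG2 it had 5.56, 9.34 and 7.24 FPKM in parental and 10.3, 14.5 and 11.5 FPKM in resistant cells. All resistant samples of a line lay above all parental samples of that line. ACAA1 rose by 1.26 in Huh7 (SE 0.17, adjusted p = 0.000272), where the mean was 2.7-fold higher. In HepG2 the value was 0.66 (SE 0.20, adjusted p = 0.0521), just outside the threshold, and 4 alternative fits and 2 of those without 1 sample called it (adjusted p down to 0.0114). The changes did not differ by the test (0.60, SE 0.28, adjusted p = 0.0814). Of its exon bases, 21.2% lie in exons of other genes, mainly DLEC1, which was at 0.356 to 0.784 FPKM in Huh7 and 1.1 to 1.8 FPKM in HepG2.

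ACOX2, the oxidase that starts the breakdown of branched acids and bile acid precursors, had 4.53, 5.69 and 4.01 FPKM in parental and 11.5, 9.34 and 10.1 FPKM in resistant Huh7 cells. HepG2 had 11.3, 16.5 and 14.6 FPKM in parental and 12.4, 15.8 and 13.6 FPKM in resistant cells. Resistant Huh7 samples were all above parental ones, and HepG2 samples overlapped. ACOX2 rose in Huh7 (0.98, SE 0.14, adjusted p = 0.000335), gave −0.01 in HepG2 (SE 0.17), and the changes differed (0.99, SE 0.22, adjusted p = 0.00237). ACOX3, a second oxidase of branched acids, did not pass in Huh7 (0.26, SE 0.13, adjusted p = 0.0981) or HepG2 (−0.05, SE 0.18).

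The bifunctional enzymes of the peroxisome, which hydrate and oxidise, were lower in resistant Huh7 cells. EHHADH had 13.2 ± 1.31 FPKM in parental and 8.45 ± 0.911 FPKM in resistant Huh7 cells (−0.58, SE 0.12, adjusted p = 0.00242). HSD17B4, which acts on very long and branched acids, had 20.4 ± 2.36 and 11.4 ± 1.84 FPKM (−0.80, SE 0.14, adjusted p = 0.00101). In HepG2, EHHADH had 6.09 ± 1.49 and 8.85 ± 1.13 FPKM with no overlap (0.49, SE 0.18, adjusted p = 0.0897) and HSD17B4 gave 0.13 (SE 0.14). Both changes differed between the lines (−1.07, adjusted p = 0.0013, and −0.93, adjusted p = 0.00125). Resistant Huh7 cells thus had higher ACAA1 and ACOX2 and lower EHHADH and HSD17B4 among the 5 peroxisomal members, but with the GC trend removed the calls of EHHADH (−0.14, adjusted p = 0.104) and HSD17B4 (−0.04, adjusted p = 0.674) were lost.

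Ketone metabolism is represented by BDH1, which interconverts acetoacetate and 3-hydroxybutyrate, by ACAT1, the mitochondrial thiolase that makes and splits acetoacetyl-CoA, and by OXCT1, which reclaims ketone bodies for use. BDH1 had 0.599, 0.573 and 0.618 FPKM in parental and 1.46, 1.39 and 1.28 FPKM in resistant Huh7 cells. In HepG2 it had 2.68, 2.43 and 2.72 FPKM in parental and 3.95, 4.45 and 3.76 FPKM in resistant cells. Resistant samples lay above parental ones in both lines, by 2.31-fold in the Huh7 means and 1.55-fold in the HepG2 means. It was the only member called higher in both (0.57, SE 0.10, adjusted p = 0.000994, and 0.48, SE 0.14, adjusted p = 0.0394). In Huh7 all parental values lay under 1 FPKM, so BDH1 passed the filter only through the resistant samples and only a rise could be called. The fits that left out 1 resistant Huh7 sample did not test it. The HepG2 call was lost without a filter, with both other scalings, with the GC trend removed and without any 1 of the 6 samples (adjusted p up to 0.135), and the Huh7 call was lost with the GC trend removed (0.06, adjusted p = 0.641).

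OXCT1 had 1.85, 2.92 and 1.89 FPKM in parental and 1.08, 1.68 and 1.03 FPKM in resistant Huh7 cells (−0.50, SE 0.17, adjusted p = 0.0253). In HepG2 it had 0.363, 0.388 and 0.334 FPKM in parental and 0.253, 0.3 and 0.319 FPKM in resistant cells, below the filter. Samples did not overlap in either line. The HepG2 values rest on 18 to 23 reads in a sample, and the fit without a filter made no call there (−0.08, SE 0.05, adjusted p = 0.477). The Huh7 call was lost without a filter, with the GC trend removed, and without parental replicate 2 or resistant replicate 1 or 3 (adjusted p up to 0.0898). ACAT1 fell in Huh7 from 7.7 ± 0.529 to 5.3 ± 0.471 FPKM (−0.47, SE 0.11, adjusted p = 0.00486) and gave 0.15 in HepG2 (adjusted p = 0.495), a difference of −0.62 (SE 0.17, adjusted p = 0.00914). Both ACAT1 calls were lost with the GC trend removed (−0.04, adjusted p = 0.604, in Huh7). The ratio of OXCT1 to BDH1 was 3.06 to 5.09 in parental and 0.739 to 1.21 in resistant Huh7 cells (log2 difference −2.02), and 0.123 to 0.16 and 0.0642 to 0.0849 in HepG2 (−0.95), with no overlap in either line (exact permutation p = 0.1 in both). The HepG2 ratio carries the limit of the few OXCT1 reads. The Huh7 ratio carries that of the GC trend, since with it removed OXCT1 was at −0.09 and BDH1 at 0.06, both without a call.

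**Figure D4:**
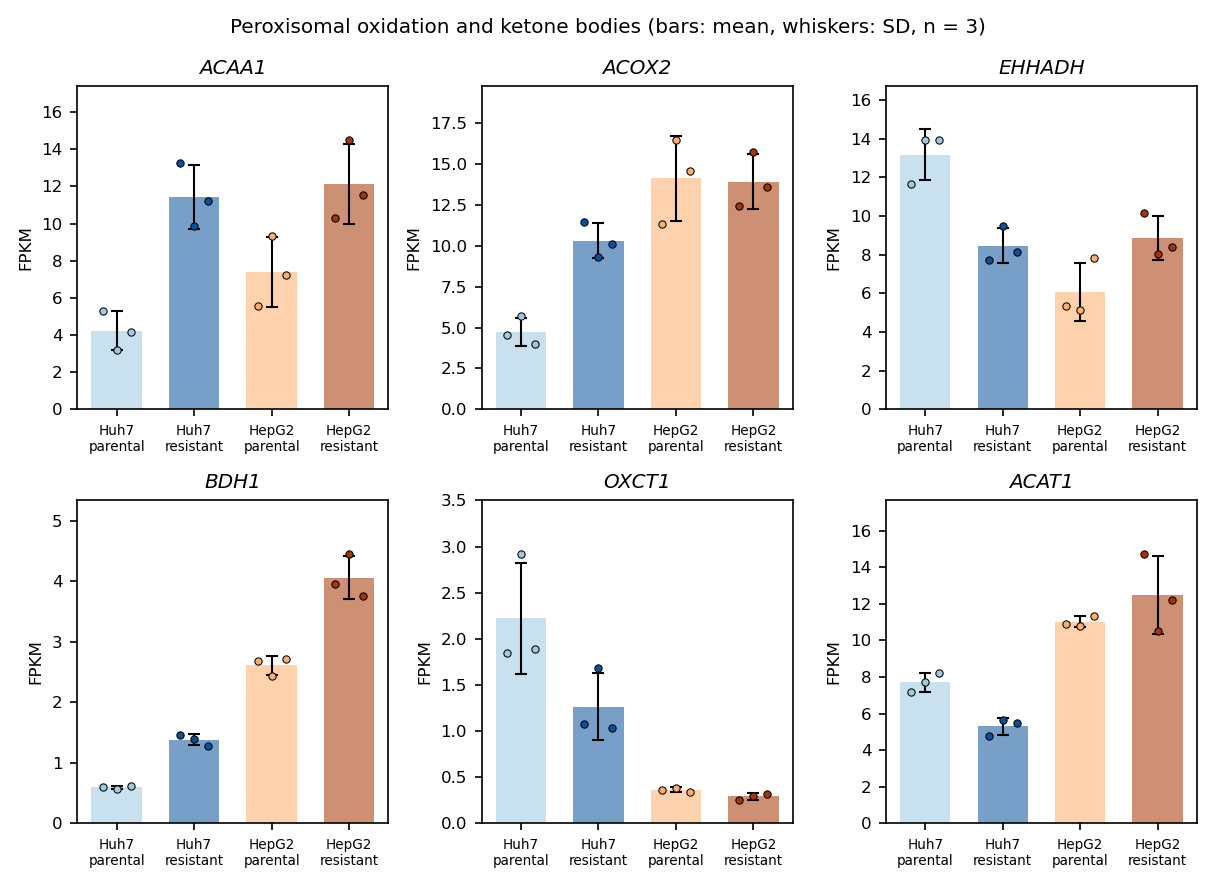
FPKM of 3 peroxisomal members (ACAA1, ACOX2, EHHADH) and 3 ketone body members (BDH1, OXCT1, ACAT1) in the 4 groups, with bars for means, whiskers for SDs and points for the 3 samples of a group. Every axis starts at 0 and has its own range. ACAA1 and BDH1 lie higher in all resistant samples of both lines than in the parental samples of the same line.

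The Huh7 changes moved with the GC content of the genes. Across 12545 genes, the rank correlation of the Huh7 log2 fold change with the GC content of the longest transcript was 0.62, and it was 0.62 across the 30 members. In HepG2 it was 0.04 across all genes and 0.21 across the 29 members. These describe genes of the same libraries, which are not independent. The 12 members higher in resistant Huh7 cells had a median GC content of 52.8% (38.5% to 64.6%) and the 9 lower ones 42.3% (38.1% to 45.6%), against 46.7% over all genes.

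When the trend with GC content was taken off each library, 10 of the 21 Huh7 calls kept their direction (ETFDH, ACAA2, ACAA1, ACSL5, CPT2, HADHA, SLC25A20, ACOX2, FABP1 and ECHS1). Another 10 were no longer called (ACADM, ACADS, ECI1, EHHADH, HSD17B4, ACSL3, ETFA, BDH1, OXCT1 and ACAT1), and ACADVL was called in the opposite direction (−0.20, adjusted p = 0.017). ACSL3 shrank from −0.86 to −0.07. CPT2, whose longest transcript is poor in GC, moved from 0.47 to 1.23. CPT1A, DECR2, HADH, HADHB and DECR1, not called before, passed after the removal. In HepG2 the 3 synthetases kept their calls and BDH1 lost its own (0.38, adjusted p = 0.0569). Whether the trend comes from the cells or from the libraries was not tested.

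**Figure D5:**
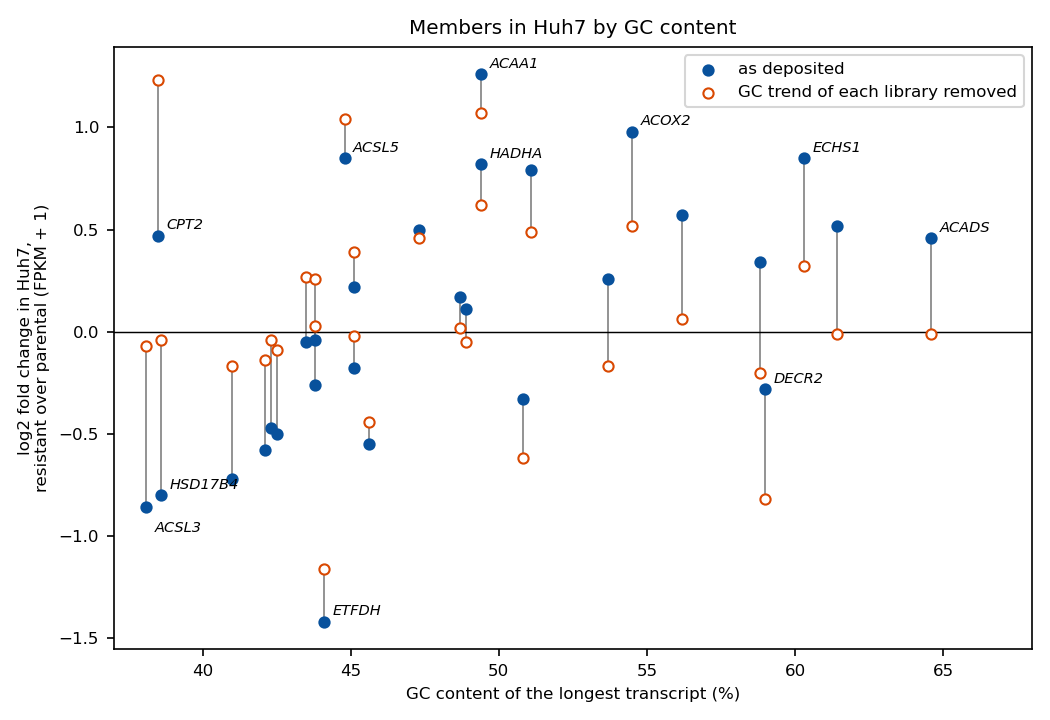
Log2 fold change of the 30 tested members in Huh7 against the GC content of the longest transcript in percent, with filled points for the deposited values and open points after each library's GC trend was removed, joined by a line per gene. Filled points climb from left to right, and most open points at both ends lie nearer to 0, while ETFDH, ACAA1, ACSL5, CPT2, CPT1A and DECR2 stay far from it or move away.

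The 2 lines also differed before resistance. Of 30 members tested between the parental lines, 15 (50%) were lower in Huh7 than in HepG2 and 6 (20%) higher, against 26.2% and 39% of 12796 genes. Median-ratio scaling gave 17 lower and 3 higher, and upper-quartile scaling 16 and 3. The shares of all genes under these scalings are not given here, so those counts cannot be set against 26.2% and 39%. The median log2 difference was −0.36 over the members and 0.19 over all genes, and the latter moved to 0.02 under median-ratio scaling. The lower ones included ACSL5 (75.3-fold lower in the means, log2 difference −5.40, SE 0.18, adjusted p = 2.2e-07), CPT1A (5.58-fold, −2.26, SE 0.17, adjusted p = 1.12e-05), ETFB (5.27-fold, −1.84) and BDH1 (4.37-fold, −1.18). HADHA, HADHB, ACOX2, ACADS, SLC27A2 and ACSL3 were also lower in Huh7, by 2.03-fold to 3.7-fold, and ACAA1, ECHS1, ACSL1, ACAT1 and ECI1 by 1.39-fold to 1.74-fold. Higher in parental Huh7 were OXCT1 (6.13-fold, 1.22, SE 0.14, adjusted p = 0.000138), SLC25A20 (2.8-fold, 1.26), EHHADH (2.16-fold, 1.02), and by less than 1.5-fold FABP1, ETFDH and ETFA. The calls of these last 3 were lost under median-ratio scaling (adjusted p 0.248, 0.123 and 0.264). OXCT1 passed the filter here only through Huh7 and BDH1 only through HepG2, so the filter fixed the direction of both calls. Cell line and any batch that goes with it cannot be told apart.

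The change with resistance differed between the lines for 15 of 29 members (51.7%), beside 56.3% of 10688 genes, a share near that of all genes. The median difference, Huh7 minus HepG2, was 0.31 over the members and −0.11 over all genes, and the latter became 0.06 under median-ratio scaling. By role, these were 3 of 5 tested members of uptake, binding and activation, 2 of 3 of the carnitine shuttle, 3 of 6 dehydrogenases and electron transfer proteins, 2 of 5 later mitochondrial enzymes, 1 of 3 isomerases and reductases, 3 of 5 peroxisomal enzymes and 1 of 2 ketone enzymes.

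A further 57 genes of the pathway that are not among the 34 were examined as a fixed list. In Huh7, 16 of 37 tested (43.2%) were higher and 11 (29.7%) lower, beside 32.7% and 37.4% of all genes tested. Among the 16, SLC27A3 (0.577 to 0.805 FPKM) and SLC22A5 (0.789 to 0.845 FPKM) lay under 1 FPKM in all parental Huh7 samples. They passed the filter only through the resistant samples, so only a rise could be called. In HepG2, 5 of 37 (13.5%) were higher and 5 (13.5%) lower, beside 11.6% and 8.43%. Beyond a change of 1, the members of this list reported here were HSD17B10, ACOT7, SLC27A3 and FABP5, higher in resistant Huh7 cells, and ABCD3, SLC16A7 and BDH2, which were lower. SLC16A7, a carrier of ketone bodies and pyruvate, fell by 1.47 in Huh7 (SE 0.18, adjusted p = 0.000187), and BDH2, a cytosolic dehydrogenase, fell by 1.15 (SE 0.10, adjusted p = 5.1e-05). With the GC trend removed, the 7 genes named for a change beyond 1 kept their calls and directions but lay within 1. They ran from −0.56 (BDH2) to 0.89 (FABP5), with SLC16A7 at −0.44 and ABCD3 at −0.26.

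In HepG2, the changes beyond 1 reported here were higher ABCD3, ACOT2 and ACAT2 and lower ACSL4, PPARGC1A and PLIN2. ACOT2 is nearly identical to its neighbour ACOT1, so its level is uncertain. PLIN2, the coat protein of lipid droplets, fell by 1.74 in HepG2 (SE 0.19, adjusted p = 0.000957) from 515.8 to 767.7 FPKM in parental to 160.2 to 196.4 FPKM in resistant cells, and rose by 0.78 in Huh7 (SE 0.11, adjusted p = 0.000408). PPARGC1A, a coactivator of oxidative genes, fell by 1.08 in HepG2 (SE 0.21, adjusted p = 0.0111), where the mean was 2.35-fold lower. In Huh7 it lay below the filter and was not in the main test. Its Huh7 mean was 0.829 FPKM in parental (141 to 169 reads) and 0.0948 FPKM in resistant cells (16 to 24 reads), 8.75-fold lower with no overlap.

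ABCD3, a peroxisomal importer of acyl-CoA, was called in both lines with opposite signs (−1.08, SE 0.14, adjusted p = 0.000255, in Huh7 and 1.01, SE 0.19, adjusted p = 0.0085, in HepG2). PPARA, which encodes PPAR-alpha, was at 1.91 to 2.43 FPKM in parental and 1.13 to 1.41 FPKM in resistant Huh7 cells (−0.52, SE 0.12, adjusted p = 0.00372) and gave −0.27 in HepG2 (SE 0.15, adjusted p = 0.24). It is named because of the half-site described above and was chosen after its values had been seen.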

How the data were processed

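RNA libraries (NEBNext Ultra kit, per the labels) of 12 samples were compared. The labels name a Qiagen kit for RNA extraction and the study's methods another reagent. The submitters' processing notes name bcl2fastq and GRCh38, while the aligner, counter, strand setting and unit are not given in the sources used here. The deposited values were read as FPKM made by the authors: multiplied by exon length (GENCODE 29) and by 1 step per sample they fall within 0.05 of whole reads for 96.3% to 96.5% of values up to 2000 reads, and FPKM and RPKM cannot be told apart. NONCODE genes (71462) were not used here. No molecular identifiers were used, and intervals on reads therefore cover counting error only.

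Groups came from the labels. limma 3.58.1 (R 4.3.3, empirical Bayes with trend, 2-sided) was run on log2(FPKM + 1), and Benjamini-Hochberg adjustment covered all genes tested. Genes needed at least 1 FPKM in at least 3 samples of the comparison (of each line, for the interaction of line and resistance in 12 samples). The study's methods require an adjusted p under 0.05 together with a log2 fold change beyond 1, and both this and the adjusted p alone were used here. The script was tested on simulated data. Alternatives were a pseudocount of 0.1, no filter, median-ratio and upper-quartile scaling, removal of each library's GC trend (lowess, span 0.3), limma without trend, limma-voom on reads calculated back, all 12 samples in 1 fit, the replicate number as a block, and leaving out each sample.

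The members and lists were chosen with earlier results of these data known. Values per sample are given for members with a called change beyond 1, the 5 largest changes of each line, members called with opposite signs, and members at no more than 1 FPKM in a whole group. Others are given by mean and SD. The search for the half-site, and the ratios of member pairs, were chosen once the values were known. Tables were handled with Python 3.11.15 and pandas 2.3.3. Some genes are not reported here.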

Additional observations from a re-analysis of the deposited data

Results flagged for a closer look

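The change with resistance differed between Huh7 and HepG2 for 15 members by the interaction of cell line and resistance (limma, adjusted p under 0.05 over 10688 genes, of which 56.3% passed). Values are the Huh7 minus the HepG2 log2 fold change. More positive in Huh7 were ACSL5 (3.92), ACSL1 (1.18), HADHA (1.02), ACSL3 (1.02), ACOX2 (0.99), SLC25A20 (0.86), ACADVL (0.62) and CPT2 (0.47). More negative in Huh7 were ETFDH (−1.24), EHHADH (−1.07), ACADM (−0.95), HSD17B4 (−0.93), DECR2 (−0.93), ACAA2 (−0.85) and ACAT1 (−0.62). ACSL5 was called in both lines with opposite signs in the fit reported. For ACSL1 and ACSL3 the positive value is a larger fall in HepG2. With the GC trend removed, ACADM, ACADVL, ACAT1 and HSD17B4 no longer passed (adjusted p 0.122, 0.143, 0.296 and 0.619). The groups of 3 are too small for a test of single outlying samples.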

How the results depend on the processing

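Of the 21 members called in Huh7 and the 15 with different changes in the lines, the alternative fits gave 16 to 23 and 12 to 19 (15 to 20 and 13 to 17 without 1 sample). Shares of all genes under the alternative fits are not given here, so these counts and those below stand without a background. Leaving out 1 sample gave 7 to 12 members higher in Huh7 (7 without resistant replicate 3), 0 to 2 in HepG2 and 2 to 5 in parental Huh7 (2 without Huh7 parental replicate 2 or 3). Part of these drops is a gene that left the test. BDH1 was not tested in Huh7 without a resistant sample, nor OXCT1 between parental lines without a Huh7 sample. With the GC trend removed, 5 members were lower and 4 changed beyond 1 in Huh7, and in HepG2 7 were called (2 higher, 5 lower). Signs also turned there in Huh7 for ACADVL (−0.20), ACADS (−0.01), HADHB (0.27), ECI1 (−0.01), DECR1 (0.26) and ETFA (0.03), and between parental lines for HSD17B4 (−0.32). Changes beyond 1 in Huh7 numbered 6 with a pseudocount of 0.1 and with limma-voom. In HepG2, 0 members were higher with no filter, median-ratio or upper-quartile scaling, 3 with limma-voom and 4 (8 called in all) with all 12 samples in 1 fit. Between parental lines 3 were higher in Huh7 with either scaling. With the replicate block, 20 members were called in Huh7, 7 in HepG2 (3 higher), 14 for the difference of the lines and 18 between parental lines (3 higher). Deviations of samples with the same number correlated at −0.20 to 0.07 in Huh7 and −0.01 to 0.39 in HepG2, where 2 and 4 of 6 samples correlated best with their own number, so a pairing by number is not established. Counted over members and the alternative fits that kept every sample, values without a call turned sign 4 times in Huh7, 10 in HepG2, 12 for the difference of the lines and 5 between parental lines. The fits without 1 sample added 2, 17, 7 and 2 such turns, in the same order. The causes of these shifts were not tested. All 12 samples already enter the test of the lines' difference, and no separate fit was run there. Genes under 1 FPKM rest on few reads, and groups of 3 limit the precision of every value.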
